A study of Mus musculus with 24 samples.

Results

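The 32 genes described here are expressed in B lymphocytes, from the earliest committed progenitors to the mature cells that circulate in blood. They were found by gene name among the 37008 distinct names on a mouse gene expression array. Fcmr is named so in the scanner files, whose description of its probe gives the older name Faim3. By role they comprise 7 genes of early progenitors (Vpreb1, Igll1, Rag1, Dntt, Vpreb2, Rag2 and Il7r), 8 genes of mature B cells (Ms4a1, Cr2, Fcer2a, Cxcr5, Tnfrsf13c, Fcmr, Bank1 and Ralgps2), 12 genes of the B cell receptor and its signalling, and 5 genes of transcription factors. The list was drawn up with earlier results of these arrays known, so its counts are given as descriptions beside the same counts over all genes.

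All samples were from Erfe-/- males, mice that lack erythroferrone, a hormone that erythroblasts release to lower hepcidin. Mice were bled through the retro-orbital sinus, and RNA of liver and of bone marrow was taken 0, 24 or 48 h later, with 4 mice at each time and the 0 h mice labelled as controls. This gives 6 groups of 4 single-colour arrays, 24 in all. Every animal lacks Erfe, controls included, so these values cannot show whether a difference with time depends on the genotype. The labels name whole liver and bone marrow with no cell sort, and do not say whether a liver and a marrow of the same number came from the same mouse.

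B cells arise in the marrow. In progenitors the RAG1 and RAG2 recombinase cuts the immunoglobulin heavy chain locus, terminal transferase (Dntt) adds bases at the joints, and the finished heavy chain is tested in a pre-B receptor with the surrogate light chain made of VPREB and IGLL1, while interleukin 7 acts through IL7R. Cells that pass replace the surrogate by a true light chain, leave for the spleen and mature. Mature B cells carry CD20 (Ms4a1), the complement receptor CD21 (Cr2), the low-affinity IgE receptor CD23 (Fcer2a) and the follicle-homing chemokine receptor CXCR5, and some of them return to the marrow with the blood.

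The start-site windows of the pre-B receptor genes and of Cr2 and Fcmr, which fell in marrow at 24 h, are shown because they belong to the most distinct stages of this list. Each runs 5′ to 3′ on the gene's own strand, from 250 bases before to 50 after the start annotated by RefSeq on GRCm38.p6, and capitals mark a match to CAGGTG (an E-box bound by E2A proteins), CCCNNGGG (the core bound by EBF1) or the octamer ATTTGCAT on either strand.
Vpreb1 promoter, chr16:16869206-16869505 (minus strand): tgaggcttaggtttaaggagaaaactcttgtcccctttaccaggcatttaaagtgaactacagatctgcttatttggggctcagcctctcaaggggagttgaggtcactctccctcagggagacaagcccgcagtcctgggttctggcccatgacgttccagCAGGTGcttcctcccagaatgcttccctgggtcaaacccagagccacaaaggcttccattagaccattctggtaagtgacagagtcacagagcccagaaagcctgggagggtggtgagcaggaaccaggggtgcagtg
Vpreb2 promoter, chr16:17980315-17980614 (plus strand): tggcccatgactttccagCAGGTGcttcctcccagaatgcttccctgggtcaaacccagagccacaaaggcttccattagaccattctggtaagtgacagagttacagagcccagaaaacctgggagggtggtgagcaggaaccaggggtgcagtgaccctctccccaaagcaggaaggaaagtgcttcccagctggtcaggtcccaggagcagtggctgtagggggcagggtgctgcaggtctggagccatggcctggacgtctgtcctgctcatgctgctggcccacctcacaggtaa
Igll1 promoter, chr16:16863936-16864235 (minus strand): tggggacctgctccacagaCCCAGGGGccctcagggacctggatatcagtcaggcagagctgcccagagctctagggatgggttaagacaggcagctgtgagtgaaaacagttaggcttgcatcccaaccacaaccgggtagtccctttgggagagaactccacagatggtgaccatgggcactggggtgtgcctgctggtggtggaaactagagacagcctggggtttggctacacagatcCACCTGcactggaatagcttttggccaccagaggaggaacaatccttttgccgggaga
Cr2 promoter, chr1:195176670-195176969 (minus strand): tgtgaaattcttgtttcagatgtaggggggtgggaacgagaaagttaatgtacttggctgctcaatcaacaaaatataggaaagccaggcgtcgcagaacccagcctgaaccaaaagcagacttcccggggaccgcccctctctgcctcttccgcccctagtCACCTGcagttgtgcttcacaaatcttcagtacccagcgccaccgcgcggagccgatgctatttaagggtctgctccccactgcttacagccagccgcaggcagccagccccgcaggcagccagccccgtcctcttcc
Fcmr promoter, chr1:130865527-130865826 (plus strand): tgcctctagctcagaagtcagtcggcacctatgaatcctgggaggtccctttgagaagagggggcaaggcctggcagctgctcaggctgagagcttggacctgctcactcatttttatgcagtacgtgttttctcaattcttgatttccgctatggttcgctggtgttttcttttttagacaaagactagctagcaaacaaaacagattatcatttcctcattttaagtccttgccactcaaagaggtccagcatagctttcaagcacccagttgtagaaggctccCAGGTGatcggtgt

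All 5 windows hold the E-box letters, and Igll1 also holds the CCCNNGGG core. The windows of Vpreb1 and Vpreb2, which are close copies on chromosome 16, share a stretch shifted by 144 bases in which 153 of 156 bases are identical, and the same E-box lies inside it. RefSeq windows were matched for 27 of the 32 genes, giving 31 windows. The E-box letters occurred in 16 of these 31 windows (51.6%) against 20.2% of all 32851 windows of this length. The CCCNNGGG core occurred in 4 (12.9%) against 13.7%, and the octamer in 2 (6.45%), those of Blnk and Vpreb3, against 1.74%. These are counts of letters and were not tested. Early and mature genes alike were among those with an E-box, including Rag1, Vpreb1, Vpreb2 and Igll1 on the early side and Bank1, Cr2, Fcer2a, Fcmr, Ralgps2 and Tnfrsf13c on the mature side.

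Levels are log2 processed intensity minus the array's 75th percentile, so 0 means a probe as bright as that percentile, and levels of different probes are not compared. That percentile, as processed intensity, was 361.2 to 473.1 in liver and 715.0 to 954.7 in marrow. Per array, 28079 to 34499 probes in liver and 32368 to 35771 in marrow were marked by the scanner software as well above background. The tissues carried their own markers, with 6 of 6 hepatocyte genes called higher in liver and 6 of 6 erythroid and 6 of 6 neutrophil genes called higher in marrow. A single marrow array stood apart. Replicate 2 at 24 h held hepatocyte transcripts at a median of 17.6% of their liver level, against 0.00134% to 0.0398% on the other 11 marrow arrays. Calls and medians at 24 h in marrow are given with it and, where they move, without it.

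Before phlebotomy the list was far brighter in marrow than in liver. Of the 32 genes, 31 could be tested in marrow, each well above background on all 4 arrays of every marrow group, and Rag1 could not. In the 0 h groups 28 of these 31 were called higher in marrow (limma over 24 arrays, Benjamini-Hochberg adjusted p below 0.05), where 39.6% of all 22781 genes were called higher and 80.2% were called in either direction. The median difference was 4.47 on the log2 scale, against -0.03 over all genes. Igll1, Rag2, Blk, Tnfrsf13c, Cd79a and Fcrla entered this test through the marrow arrays alone. For them the probe filter itself favoured a higher level in marrow, and they are counted in the 28 and in the median. Vpreb3, a chaperone-like partner of the immature receptor, was 151-fold higher in marrow. Spib, a transcription factor of B cells and plasmacytoid dendritic cells, was 90.3-fold higher, and Pou2af1, the coactivator of octamer-binding factors, 70.2-fold.

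Among the early genes Vpreb1 read 2.93, 3.43, 3.30 and 3.82 in the 4 marrow arrays at 0 h and -2.16, -2.31, -2.48 and -2.17 in liver, which is 50.1-fold. Dntt was only 4.03-fold higher in marrow, and its liver probe was well above background on all 4 arrays. Igll1 was not well above background on any liver array and was at least 39.2-fold higher in marrow, and Rag2 at least 7.61-fold, where each bound sets the marrow mean against the mean, over the 4 liver arrays, of the dimmest signal well above background on each. Rag1, the other recombinase subunit, was above background on 2 of 4 arrays in each marrow group and on none in liver. Its marrow arrays read -4.78, -5.12, -5.26 and -4.45 at 0 h, -4.58, -5.01, -5.59 and -4.93 at 24 h, and -4.46, -4.81, -5.84 and -5.59 at 48 h, with all groups overlapping.

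Cd38, an ectoenzyme of many cell types, was the only member called lower in marrow, at 0.697 of its liver level. Cd22 and Ralgps2 were not called, at 1.08 and 0.858 of it. For Cd22, an inhibitory receptor of B cells, the reported probe is its brightest, and a dimmer kept probe at chr7:31651590-31651649 (mm9) read -1.02 in marrow and -3.82 in liver. Cd37, a tetraspanin, behaved likewise. Its reported probe read 3.05 in marrow and 2.38 in liver, a 1.60-fold difference, while a kept probe at chr7:52489002-52489061 read 3.25 and -1.18. The values of Cd22 and Cd37 therefore depend on the probe, and both genes are given again beside their changes. So do those of Pax5. Its probe in this comparison read -1.87 in marrow and -2.82 in liver, a 1.93-fold difference. The probe used for its marrow changes read -0.28 in marrow and -6.46 in liver, where it was above background on no array.

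**Figure D1:**
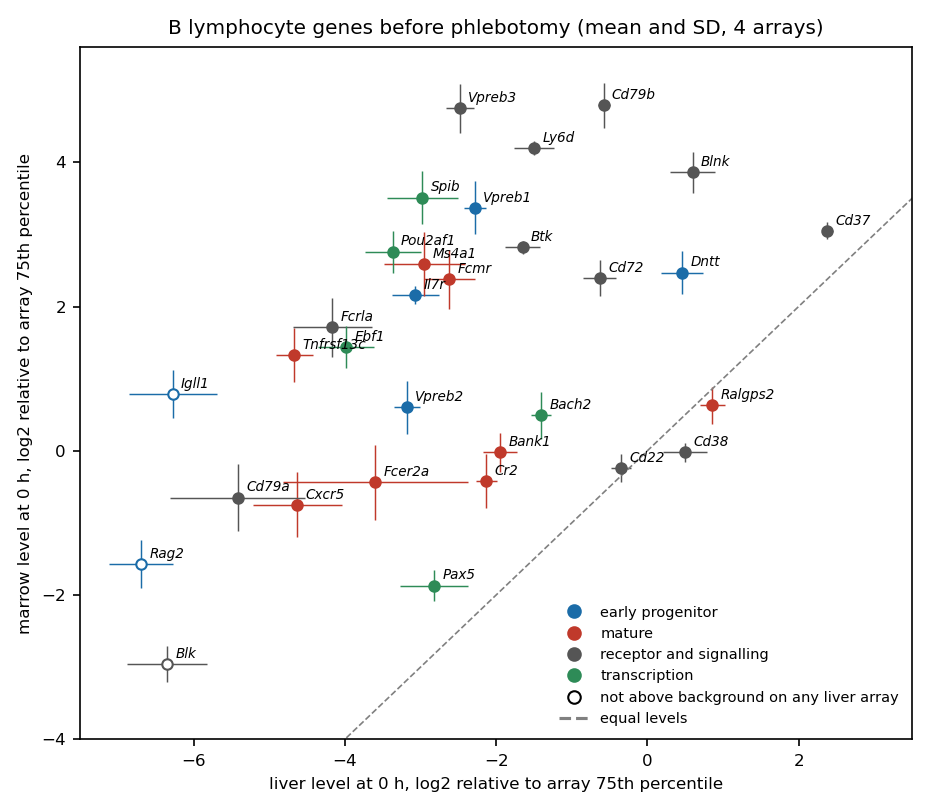
Mean level of 31 B lymphocyte genes in marrow (vertical axis) against liver (horizontal axis) at 0 h, log2 relative to the array 75th percentile, with SD over 4 arrays in each tissue. Most genes lie above the dashed line of equal levels, Cd38, Cd22 and Ralgps2 lie close to it, and open symbols mark Igll1, Rag2 and Blk, which were not well above background on any liver array. Distances from the line can be compared between genes that are well above background in both tissues, and heights cannot. For the open symbols, and for Tnfrsf13c and Cd79a with 1 liver array above background, the plotted distance depends on the background level.

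In marrow at 24 h 3 genes of mature B cells had fallen. Cxcr5 was 3.61-fold lower, Fcmr, the Fc receptor for IgM, 2.68-fold lower and Cr2 2.21-fold lower. These were the only members called, 3 of 31, all lower, where 99 of 21399 genes (0.463%) were called lower and 217 (1.01%) in either direction. Below that threshold the list lay broadly under 0. The change was negative for 28 of 31 members against 55.4% of all genes, 18 of 31 were lower at an unadjusted p below 0.05 against 6.86%, and in 9 of 31 the 4 later arrays all lay under the 4 arrays at 0 h, against 4.13%. In whole marrow, fewer cells of a type and less RNA per cell cannot be told apart.

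Cxcr5, measured at chr9:44320071-44320130 (mm9), read -1.31, -0.50, -0.90 and -0.28 at 0 h, -2.95, -3.31, -2.19 and -1.94 at 24 h, and -1.52, -2.02, -2.39 and -1.42 at 48 h. All later arrays lay under all arrays at 0 h, and the 24 h and 48 h groups overlapped. The change at 24 h was -1.85 (SE 0.33, limma adjusted p = 0.0244). Fcmr, at chr1:132777256-132777315, read 1.84, 2.78, 2.31 and 2.58 at 0 h, 0.88, 0.47, 1.14 and 1.33 at 24 h, and 1.99, 1.2, 1.22 and 1.94 at 48 h. Its 24 h arrays lay apart from the 0 h arrays, and at 48 h the highest arrays had returned into the range of 0 h. The change at 24 h was -1.42 (SE 0.26, limma adjusted p = 0.0276).

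Cr2, at chr1:196965532-196965591, read -0.90, -0.08, -0.52 and -0.20 at 0 h, -1.47, -1.86, -1.51 and -1.42 at 24 h, and -0.72, -1.30, -1.67 and -0.81 at 48 h. The 24 h arrays were tightly grouped and lay under the 0 h arrays, and the 48 h arrays reached into both ranges. The change at 24 h was -1.14 (SE 0.23, limma adjusted p = 0.0417), and another probe of Cr2, above background on every marrow array, gave -1.31. Its dimmest kept probe was above background on 4 arrays at 0 h and 1 at 24 h and gives no exact difference. Fcer2a, at chr8:3682021-3682080, read -1.10, 0.10, -0.58 and -0.18 at 0 h, -2.71, -2.91, -1.90 and -1.68 at 24 h, and -1.36, -2.29, -2.52 and -0.92 at 48 h. Its difference at 24 h had the size of that of Cxcr5, -1.85, with no overlap between the groups, but with an SE of 0.40 it did not pass (limma adjusted p = 0.0596).

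Ms4a1, at chr19:11325409-11325468, read 1.98, 2.84, 2.54 and 2.99 at 0 h, 1.65, 1.21, 1.43 and 2.05 at 24 h, and 2.69, 1.92, 1.85 and 2.16 at 48 h. A single 24 h array reached into the 0 h range, and the difference of -1.0 (SE 0.26) did not pass (limma adjusted p = 0.105). Bank1, a scaffold protein of B cell receptor signalling, read -0.40, 0.18, -0.01 and 0.16 at 0 h, -0.91, -0.98, -0.65 and -0.67 at 24 h, and -0.34, -0.75, -1.11 and -0.51 at 48 h. The 24 h and 0 h arrays did not overlap, and the difference was -0.78 (SE 0.18), which did not pass (limma adjusted p = 0.0681). Ralgps2, an exchange factor for Ral GTPases, gave -0.50 (SE 0.19). Tnfrsf13c, the receptor for the B cell survival factor BAFF, gave the smallest value of this group, -0.17 (SE 0.20), with overlapping arrays at all times.

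The 3 calls depend on single arrays. With replicate 2, 3 or 4 at 0 h or replicate 1 or 2 at 24 h left out, 0 members were called, and without replicate 3 at 24 h there was 1. Without replicate 2 at 24 h, the array with hepatocyte transcripts, the changes were -1.61 for Cxcr5, -1.26 for Fcmr and -1.04 for Cr2 (limma adjusted p = 0.0611, 0.07 and 0.1). Of the 31 members 10 were then lower at an unadjusted p below 0.05, 29 were below 0, and the median was -0.43 in place of -0.51. Of 21399 genes 1033 were then lower at that level, 10484 were below 0 and 49 were called lower, with a median of 0. The arrays lay on 3 slides, each holding both tissues and all times. Within slides 1, 2 and 3 the 24 h difference of Cxcr5 was -2.05, -2.41 and -1.78, that of Fcmr -1.43, -1.84 and -1.34, and that of Cr2 -0.98, -1.34 and -1.27, all below 0. Each slide held only 1 or 2 marrow arrays of a time. On slide 2 the only 24 h marrow array was replicate 2, which held the hepatocyte transcripts, and slide 2 gave the largest falls. With the slide as a block 4 members were called, Fcer2a with them (limma adjusted p = 0.0127).

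**Figure D2:**
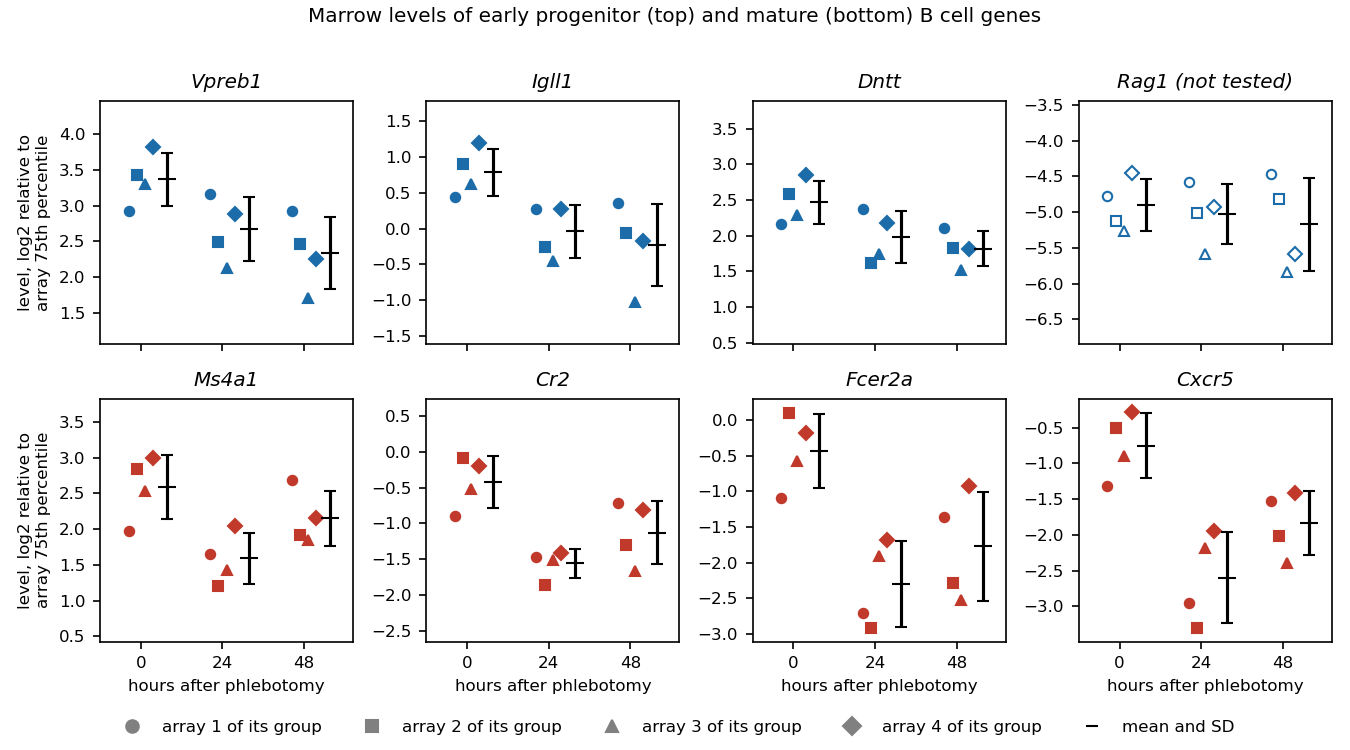
Marrow level of the early progenitor genes (top) and the mature genes (bottom) that the comparison names, log2 relative to the array 75th percentile, against hours after phlebotomy, with a symbol per array and the mean with its SD beside each group. All panels span the same range of log2 units. In Cxcr5, Cr2 and Fcer2a every 24 h array lies under every 0 h array, while Dntt and Vpreb1 overlap at 24 h and separate at 48 h.

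Of the early progenitor genes none of the 6 tested was called at 24 h by limma. At an unadjusted p below 0.05, 4 were lower, against 6.86% of all genes. Without the array that held hepatocyte transcripts only 1 was, against 1033 of 21399 genes. Vpreb1, at chr16:16868559-16868618, read 3.17, 2.49, 2.13 and 2.88 at 24 h against the values at 0 h given above, and 2.92, 2.46, 1.71 and 2.25 at 48 h. At 24 h replicate 1 still lay within the 0 h range, and at 48 h no array did. The differences from 0 h were -0.70 (SE 0.29) at 24 h and -1.03 (SE 0.29) at 48 h (limma adjusted p = 0.335 and 0.11). Igll1, at chr16:16861104-16861163, read 0.44, 0.91, 0.63 and 1.2 at 0 h, 0.27, -0.26, -0.45 and 0.27 at 24 h, and 0.36, -0.06, -1.03 and -0.17 at 48 h. Both later groups lay under the 0 h arrays, by -0.83 (SE 0.28) and -1.02 (SE 0.28), without passing (limma adjusted p = 0.239 and 0.113).

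Dntt, at chr19:41133936-41133995, read 2.17, 2.58, 2.29 and 2.85 at 0 h, 2.37, 1.62, 1.74 and 2.18 at 24 h, and 2.11, 1.83, 1.52 and 1.82 at 48 h. Only the 48 h arrays lay wholly under those at 0 h, and the differences were -0.49 (SE 0.20) and -0.65 (SE 0.20), with limma adjusted p = 0.333 and 0.139. Vpreb2 gave -0.71 and -0.94 (SE 0.28 each). Vpreb1 and Vpreb2 are near-identical copies, and whether each probe binds the other's transcript was not tested, so their agreement is not independent. Rag2 gave -0.22 and -0.36 (SE 0.23 each), and Il7r, whose receptor chain T cell progenitors also carry, gave -0.16 and -0.25 (SE 0.17 each).

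The contrast between stages differed with time. At 24 h the median difference from 0 h was -1.07 over the 8 mature genes and -0.60 over the 6 early genes, a gap of 0.47, against a median of -0.02 over all genes. The gap itself has no test. Without the array that held hepatocyte transcripts the medians were -0.96 and -0.51, and the gap was 0.45. At 48 h the medians were -0.68 and -0.80, a gap of -0.12. Between 24 h and 48 h the difference was positive for all 8 mature genes, with a median of 0.48, and negative for all 6 early genes tested, with a median of -0.17, where 42.2% of all genes were negative. No member was called in that comparison, in which 1 of 21399 genes (0.00467%) was. With all arrays 3 of 31 members were higher at an unadjusted p below 0.05, against 5.87% of all genes. They were Cxcr5 at 0.76 (SE 0.33), Fcmr at 0.63 (SE 0.26) and Ms4a1 at 0.57 (SE 0.26). Without marrow replicate 2 at 24 h the medians were 0.33 for the mature genes and -0.27 for the early genes. The comparisons share arrays, those at 0 h between the 24 h and 48 h differences and those at 24 h between the difference before it and the one after it.

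Array by array, the early median minus the mature median at 24 h was 0.84, 0.55, 0.14 and 0.45, where the arrays at 0 h read 0.17, -0.14, -0.06 and 0.15 and those at 48 h -0.09, 0.14, -0.15 and -0.38. All 4 arrays at 24 h were thus positive, and replicate 3 lay inside the 0 h range. With the genes named for the contrast alone, 3 early and 4 mature genes, the medians were -0.70 and -1.50 at 24 h and -1.02 and -0.90 at 48 h. Those at 24 h were -0.64 and -1.33 without the array that held hepatocyte transcripts. Within slides 1, 2 and 3 the 24 h gap was 0.88, 0.62 and 0.17, where slide 2 had replicate 2 as its only 24 h array. It was the early side that varied, with medians of -0.01, -0.72 and -1.09, while the mature medians were -0.89, -1.34 and -1.26. Vpreb1, for example, differed by -0.01, -0.81 and -1.31. The gap between 24 h and 48 h was negative in every slide, at -0.99, -0.68 and -0.66, slide 2 again with replicate 2 as its only 24 h array.

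**Figure D3:**
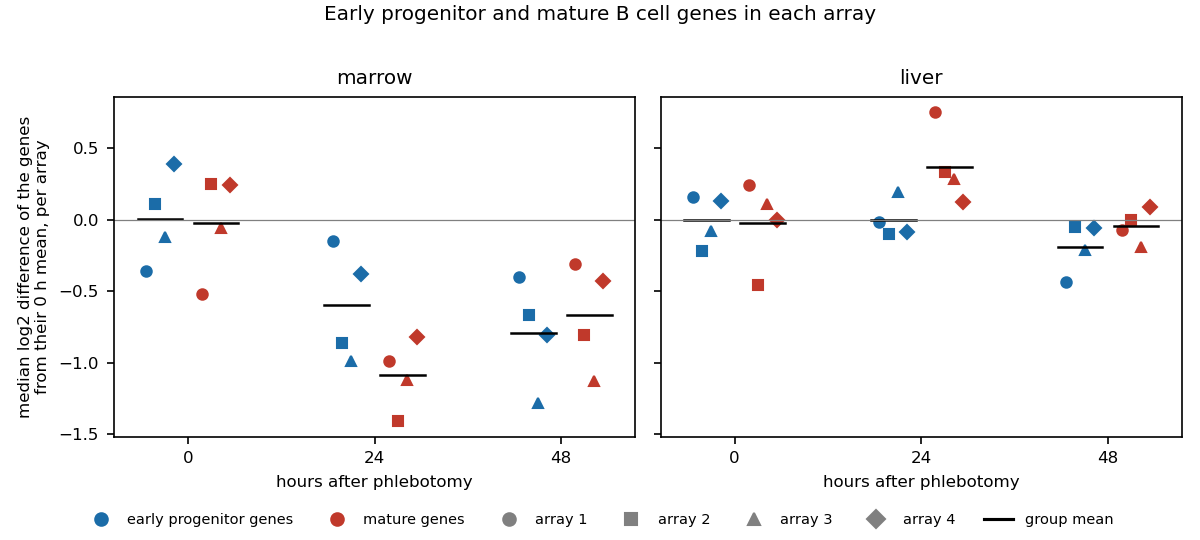
Median log2 difference of the early progenitor genes and of the mature genes from their own 0 h mean, for each array of marrow (left) and liver (right), against hours after phlebotomy, with a line at each group mean. In marrow the mature medians are lowest at 24 h, between -1.41 and -0.82, and the early medians reach down to -1.28 at 48 h. In liver the mature medians at 24 h lie between 0.12 and 0.75.

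At 48 h no member was called against 0 h in marrow by limma, where 264 of 21399 genes (1.23%) were, and 11 members were lower at an unadjusted p below 0.05 against 5.87% of all genes. The largest differences were those of Fcer2a, at -1.33 (SE 0.40), and Cxcr5, at -1.09 (SE 0.33). The change was negative for 30 of 31 members against 49.7% of all genes, and the median was -0.39 against 0.00. In 5 of 31 the groups did not overlap, against 4.69% of all genes separated in this direction, and 4 of these 5 were early genes, Vpreb1, Igll1, Vpreb2 and Dntt. The fifth was Cxcr5. Slide 1 differed from the others here, with a member median of 0.12 and 13 of 31 members below 0, against -0.56 with 31 of 31 on slide 2 and -0.64 with 30 of 31 on slide 3.

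Of the 12 receptor and signalling genes, which were not grouped by stage, none was called by limma at 24 h or 48 h. At an unadjusted p below 0.05, 6 and 1 were lower, against 6.86% and 5.87% of all genes. At 24 h 9 of 12 were below 0 with a median of -0.40, against 55.4% of all genes. At 48 h all 12 were, with a median of -0.34, against 49.7%. Without marrow replicate 2 at 24 h, 3 were lower at that unadjusted level at 24 h, and 10 were below 0 with a median of -0.33. Of 21399 genes 1033 were then lower at that level and 10484 were below 0. Blk, a Src family kinase of B cells, had the largest difference at 24 h, -0.96 (SE 0.30), with no overlap between groups. The receptor's signalling chains gave -0.67 (SE 0.21) for Cd79b and -0.65 (SE 0.28) for Cd79a. Ly6d, a surface marker of B-committed lymphoid progenitors, gave -0.53 (SE 0.15), again without overlap, and Blnk, the adapter that links the receptor to phospholipase signalling, gave -0.49 (SE 0.20). None of these 5 passed (the smallest limma adjusted p was 0.156, for Ly6d).

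A few members of this group had differences near 0. Btk, the kinase mutated in X-linked agammaglobulinaemia, is also expressed in myeloid cells, and it read between 2.69 and 2.91 at 0 h, 2.70 and 2.95 at 24 h and 2.71 and 2.94 at 48 h, with differences of 0.02 and -0.01 (SE 0.08 each). Cd38 gave 0.02 and -0.12 (SE 0.11 each). For Cd37 the reported probe gave 0.03 at 24 h (SE 0.10), while its other kept probes gave -0.38 and -0.35. For Cd22 the reported probe gave -0.29 (SE 0.13) and the dimmer kept probe -0.98, so in both genes the probe with the smaller difference between tissues also had the smaller difference with time. Fcrla, an intracellular Fc receptor-like protein, Cd72, a coreceptor, and Vpreb3 gave -0.42, -0.38 and -0.34 at 24 h.

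Of the 5 transcription factor genes none was called by limma. At 24 h the differences were -0.59 for Pax5, which commits cells to the B lineage, -0.55 for Pou2af1, -0.51 for Spib, -0.30 for Bach2, a repressor of plasma cell fate, and -0.20 for Ebf1, which acts upstream of Pax5. Only Pou2af1 was lower at an unadjusted p below 0.05 (limma adjusted p = 0.357), against 6.86% of all genes. Without marrow replicate 2 at 24 h none was. At 48 h they lay between -0.56 and -0.27. Other kept probes of Ebf1 gave -0.50 and -0.48 at 24 h.

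**Figure D4:**
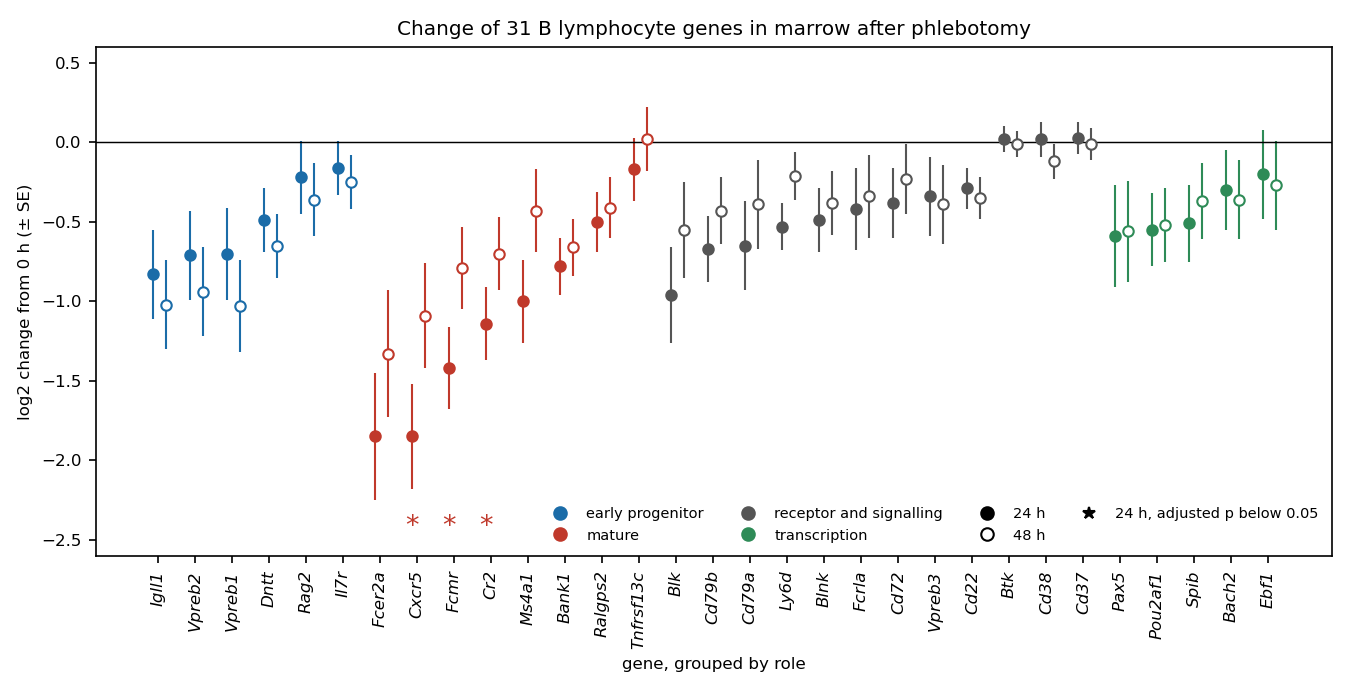
Log2 change from 0 h in marrow for 31 B lymphocyte genes at 24 h (filled) and 48 h (open), with the SE of the limma fit, grouped by role, and with asterisks for an adjusted p below 0.05 at 24 h. Most mature genes have their larger difference at 24 h, the Vpreb1, Vpreb2 and Igll1 genes at 48 h, and Btk, Cd38 and Cd37 lie near 0 at both times.

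In liver no member was called at any time by limma, and no gene of the 19649 tested was (0%). Here 25 members could be tested, and Igll1, Rag1, Rag2, Tnfrsf13c, Cd79a, Blk and Fcrla could not. Of the 25, 21 were above background on all liver arrays. Cxcr5 and Ebf1 entered through the 24 h group alone, with 3 and 2 arrays above background at 0 h and 2 each at 48 h, and Fcer2a and Pou2af1 had 3 at 0 h, so the counts that follow describe the genes tested and not the whole list. At 24 h 19 of the 25 differences were above 0, while 55.4% of all genes were below it, and the median was 0.22 against -0.02. For Cxcr5 and Ebf1 the filter itself favoured a higher level at 24 h, and both are counted in the 19 and in the median. Among members above background throughout, the largest differences were Ms4a1 at 0.66 (SE 0.30), Fcmr at 0.64 (SE 0.26) and Il7r at 0.64 (SE 0.29). At an unadjusted p below 0.05, 6 members, Ebf1 among them, were higher against 4.95% of all genes, and 1 was lower against 5.97%. In 1 of 25, Cd79b, the arrays at 24 h all lay above those at 0 h, against 2.30% of all genes. By limma the smallest adjusted p was 0.395, for Blnk, the member that was lower. Of markers of other blood cells in liver at 24 h the neutrophil list had a median of 0.90 with 0 called, with a summed linear level of 3.28 to 33.9 at 0 h and 6.03 to 25.5 at 24 h, and the T cell list a median of 0.02. Their part in the values of the B lymphocyte genes was not tested.

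The gap between stages in liver at 24 h had the opposite sign to that in marrow. At 24 h the 7 mature genes, with Cxcr5 among them through its 24 h arrays alone, had a median difference of 0.33. The 4 early genes had -0.04, a gap of -0.37, which was -0.67 without replicate 3 at 0 h. The 24 h arrays read -0.77, -0.43, -0.08 and -0.21 for this gap and the 0 h arrays -0.08, 0.24, -0.18 and 0.13, so that 1 array at 24 h lay within the 0 h range. Within slides 1, 2 and 3 it was -0.90, -0.20 and -0.05. At 48 h against 0 h the liver gap was -0.19, with the same sign as the -0.12 of marrow. Between 24 h and 48 h it was 0.22 in liver and -0.65 in marrow. Ms4a1 read -2.58, -3.71, -2.95 and -2.55 at 0 h, -1.70, -2.43, -2.20 and -2.83 at 24 h, and -2.61, -3.18, -3.51 and -2.93 at 48 h, with all groups overlapping. Cxcr5 read -4.14, -5.45, -4.28 and -4.65 at 0 h, -3.88, -4.25, -3.95 and -4.34 at 24 h, and -4.70, -4.57, -5.33 and -4.90 at 48 h. It was above background on 3, 4 and 2 of the 4 arrays in turn, and its 48 h arrays lay under its 24 h arrays, by -0.77 (SE 0.26). The filter, which admitted Cxcr5 through the 24 h group alone, favoured that order. Fcmr read -2.36, -3.08, -2.67 and -2.35 at 0 h, -1.17, -2.09, -2.10 and -2.54 at 24 h, and -2.75, -2.61, -2.50 and -2.38 at 48 h, with replicate 1 at 24 h the highest.

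Cr2 varied little in liver, at -2.01, -2.18, -2.02 and -2.31 at 0 h, -1.70, -1.88, -2.18 and -2.28 at 24 h, and -1.97, -1.95, -2.41 and -2.12 at 48 h. Fcer2a read -4.09, -4.79, -1.92 and -3.61 at 0 h, -2.79, -3.54, -3.33 and -3.45 at 24 h, and -3.76, -3.95 and -3.26 at 48 h, where the spot of replicate 3 was marked as an outlier and left out. Of the early genes, Vpreb1 read -2.48, -2.47, -2.13 and -2.07 at 24 h and -2.75, -2.23, -2.54 and -2.40 at 48 h, overlapping its 0 h range. Dntt read 0.61, 0.17, 0.30 and 0.77 at 0 h, 0.46, -0.18, 0.70 and -0.55 at 24 h, and -0.35, 0.02, 0.31 and -0.07 at 48 h, with overlap throughout. Igll1 lay between -7.35 and -5.66 and Rag1 between -7.21 and -5.87 on the 12 liver arrays, none of them well above background.

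At 48 h the liver values lay near those at 0 h. Against 0 h 17 of 25 differences were below 0, as were 55.9% of all genes, and the median was -0.05. None had an unadjusted p below 0.05, against 6.44% of all genes. Against 24 h 23 of 25 were below 0, where 49.9% of all genes were, with a median of -0.24 against 0.00. At an unadjusted p below 0.05, 6 members were lower against 3.95% of all genes. Cxcr5 and Ebf1 are counted here, and their entry through the 24 h group alone favours a value below 0. Blnk ran against the others, at -0.46 (SE 0.17) from 0 h to 24 h and 0.62 (SE 0.17) from 24 h to 48 h. The 24 h difference was uneven over slides, with a member median of 0.40 on slide 1, 0.15 on slide 2 and 0.07 on slide 3.

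The difference between tissues was tested directly. At 24 h the change in marrow was lower than that in liver for Cxcr5 by -2.37 (SE 0.45, limma adjusted p = 0.0252), for Fcmr by -2.06 (SE 0.39, adjusted p = 0.0228) and for Bank1 by -1.07 (SE 0.22, adjusted p = 0.0352). These 3 of 31 members were the ones called, where 31 of 22781 genes (0.136%) were called lower in this contrast and 83 (0.364%) in either direction. Bank1 had read -1.71, -2.19, -1.81 and -2.09 in liver at 0 h and -1.53, -1.62, -1.67 and -1.83 at 24 h. Cr2, at -1.26 (SE 0.28), and Ms4a1, at -1.66 (SE 0.42), did not pass (limma adjusted p = 0.0594 and 0.0891). Over the 25 members tested in both tissues 24 were below 0, with a median of -1.66 for the 7 mature and -0.66 for the 4 early genes. Of all 22781 genes in the model, whether tested in both tissues or in 1, 50.1% were below 0. The other 6 members are in the model through marrow alone, and their liver values were mostly not above background. Cxcr5 and Ebf1 are among the 25 through the liver 24 h group alone, and that filter favours a value below 0 here.

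These tissue differences also rest on single arrays. Without replicate 1 at 24 h, replicate 2 at 0 h or replicate 4 at 0 h of marrow 0 members were called, without replicate 1 at 24 h or replicate 4 at 0 h of liver 1 was, and without replicate 4 at 24 h of liver 5 were. Without the marrow array that held hepatocyte transcripts, Cxcr5 gave -2.14 and Fcmr -1.90, both called (limma adjusted p = 0.0483 each), and Bank1 gave -1.01 and was not (adjusted p = 0.0678). At 48 h no member was called by limma, where 94 of 22781 genes (0.413%) were, and 6 members were lower at an unadjusted p below 0.05 against 3.81% of all genes.

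Genes that work with the members but are not among them were followed as lists. Of 10 genes of peripheral B cells and homing, 4 were called lower in marrow at 24 h by limma, where 0.463% of all genes were, and none higher. They were Ccr7, a lymph node homing receptor, at -1.15 (SE 0.17, limma adjusted p = 0.0118), H2-Ob, a regulator of antigen presentation, at -1.10 (SE 0.21, adjusted p = 0.0374), Cd83 at -0.66 (SE 0.10, adjusted p = 0.0112) and the costimulatory ligand Cd86 at -0.36 (SE 0.07, adjusted p = 0.0403). Ccr7 read 0.75, 1.31, 0.97 and 1.36 at 0 h and 0.00, -0.37, 0.01 and 0.15 at 24 h, without overlap. Ccr7, Cd83 and H2-Ob were also called in the contrast with liver, at -1.54, -0.98 and -1.48. The median of the list was -0.47. Without marrow replicate 2 at 24 h, Ccr7 at -1.04 and Cd83 at -0.64 were called (limma adjusted p = 0.0308 and 0.031), and H2-Ob at -0.92 and Cd86 at -0.32 were not (adjusted p = 0.0676 and 0.0836). In the contrast with liver H2-Ob was then at -1.30 and not called (adjusted p = 0.0544). At 48 h Cd86 was called lower against 0 h, at -0.35 (SE 0.07, limma adjusted p = 0.0405).

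Of 14 lymphoid transcription factors none was called by limma, with a median of -0.25, or -0.18 without marrow replicate 2 at 24 h. Pou2f2 at -0.44 (SE 0.15) and Lef1 at -0.65 (SE 0.23) had the smallest p. Of 12 immunoglobulin and plasma cell genes 6 could be tested and none was called. Mzb1, a chaperone of immunoglobulin secretion, gave -0.76 (SE 0.18) and Jchain, which joins IgM and IgA subunits, -0.81 (SE 0.27). Of 7 niche ligands 5 could be tested and none was called, with Cxcl12, which retains B progenitors in marrow, at -0.37 (SE 0.14) and Tslp at 0.33 (SE 0.21).

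Of 12 markers of T cells 4 had fallen in marrow at 24 h, where 0.463% of all genes were called lower. All 12 were below 0, as were 55.4% of all genes, with a median of -0.66. The 4 were Cd8b1 at -1.38 (SE 0.20), Cd8a at -1.09 (SE 0.20), Thy1 at -0.70 (SE 0.14) and Cd3d at -0.64 (SE 0.12), with limma adjusted p between 0.00838 and 0.0397. Without marrow replicate 2 at 24 h 3 of them were called, where 49 of 21399 genes were called lower. Of the 12 markers 11 were then below 0 with a median of -0.55, where 10484 of all genes were below 0. Thy1 was not called at -0.58 (limma adjusted p = 0.0686). On that array the median T cell difference from 0 h was -1.01, against -0.52 to -0.34 on the other 3 at 24 h. The summed linear level of the 12 ranged from 12.9 to 14.2 at 0 h, from 9.19 to 11 at 24 h and from 10.6 to 11.8 at 48 h, and each marker was above background somewhere in marrow. The 6 natural killer markers were all below 0 at 24 h, with a median of -0.48, or -0.36 without that array. Of these 0 were called, and 4 were lower at an unadjusted p below 0.05, against 6.86% of all genes. Without that array 2 were, against 1033 of 21399 genes. The 5 plasmacytoid dendritic cell markers had a median of -0.51, or -0.34 without that array. The 6 neutrophil markers had -0.09, or -0.04 without it, and the 5 monocyte and macrophage markers tested -0.21, or -0.16, with 0 called in each list. Of 6 erythroid markers, Tfrc, the transferrin receptor, was called higher, at 0.80 (SE 0.13), and the median was 0.24, or 0.26 without that array. The part of these cell types in the values of the B lymphocyte genes was not tested.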

How the data were processed

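RNA of 24 samples, 4 in each of 6 groups, was hybridised to single-colour Agilent arrays, 1 array per sample. The deposited scanner files hold processed intensity per spot on a linear scale, made with Agilent Feature Extraction 10.10.1.1 per the submitters' processing notes, which also name limma. The authors' deposited table of log2 values was used as an alternative only. The intensity column is already background-corrected and was not corrected again.

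Control spots and spots marked as outliers were left out, spots of a probe were averaged, and log2 levels were centred on each array's 75th percentile. A probe entered a tissue's test when every array of some group of 4 had it well above background, and the brightest such probe represented its gene. In the model over both tissues Pax5 is represented by another probe than in the tissue models. Names came from RefSeq by accession, then by symbol or synonym, and otherwise from the files. limma 3.58.1 in R 4.3.3 was fitted to the 12 arrays of a tissue, or to all 24 for comparisons between tissues, with Benjamini-Hochberg adjustment over all genes and a threshold of 0.05. The number of arrays limits the precision, and an exact permutation test of 4 against 4 cannot go below p = 0.0286. The fits were tested on simulated data.

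The members and lists were chosen with earlier results of these data known. Every array's value is given for the genes named for the stage contrast and for each member called in marrow. Other members are named with their values to account for the whole list, and of the other lists the called genes or, with none called, those with the smallest p. Replicate numbers were not taken as pairs, since the labels do not tie them to animals. Alternatives were background correction, quantile scaling, the probe filter and summary, array weights, the variance model, slide or replicate number as a block, the arrays in the fit, the authors' values, leaving out each array and, chosen after seeing the data, every probe tested on its own, the lists without the marrow array that held hepatocyte transcripts, and time and number as a random block. Probe positions are on mm9 per the file headers, and exon and UTR annotation was not used here. A list of further receptor signalling genes is not reported here.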

Additional observations from a re-analysis of the deposited data

Results flagged for a closer look

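The change at 24 h differed between marrow and liver for 3 members by the interaction term over 24 arrays (limma). The difference was -2.37 for Cxcr5 (adjusted p = 0.0252), -2.06 for Fcmr (adjusted p = 0.0228) and -1.07 for Bank1 (adjusted p = 0.0352).

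In 5 of 161 groups of 4 arrays a single array lay far from the others by Dixon's criterion, and chance alone gives about 1 in 20. Ralgps2 read -0.31 on marrow replicate 3 at 48 h, against 0.36 to 0.48 on the others. On the same array Cd37 read 2.81, against 3.09 to 3.14. Bank1 read -2.06 on liver replicate 1 at 48 h, against -1.87 to -1.83. Ralgps2 read 0.99 on liver replicate 4 at 24 h, against 0.67 to 0.72. Cd37 read 2.44 on liver replicate 1 at 24 h, against 2.37 to 2.38.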

How the results depend on the processing

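Of the recomputed counts and medians 350 of 370 stayed on the same side and within the tolerance, and 20 moved. Of single-gene results 1363 of 1418 kept their direction and their side of the threshold, 52 no longer passed, 3 newly passed and 0 reversed. The count of members called in marrow at 24 h, 3, was 5 with normexp background correction, 5 with a trended robust variance, 1 with the replicate block and 0 with no probe filter, and ranged from 0 to 4 when an array was left out. With the replicate block limma adjusted p was 0.0402 for Cxcr5, 0.0655 for Fcmr and 0.0915 for Cr2. The count for the difference between tissues at 24 h, also 3, was 0 with no filter and 0 with only the arrays compared, and ranged from 0 to 5 when an array was left out; with the replicate block it was 2. The early minus mature gap in liver at 24 h, -0.37, was -0.77 with no filter, and ranged from -0.67 to -0.26 when an array was left out. Over all alternatives that gap lay between -0.77 and -0.12. The cause was not tested. Deviations from group means of same-numbered liver and marrow arrays of a time correlated with a median of 0.10 (0.00 to 0.15, 6 of 12 over 0.1), and those of different numbers with -0.03 (0 of 36 over 0.1). This is a hint from the data, not the design, that a number may mark a mouse. With time and number as a random block (consensus correlation 0.11) 4 members were called in the difference between tissues at 24 h. Leaving out single arrays ended the call of Cr2 in 9 of 12 cases, of Fcmr in 6 and of Cxcr5 in 5. Over all alternatives limma adjusted p lay between 0.00366 and 0.0947 for Cxcr5, 0.0127 and 0.102 for Fcmr, 0.0214 and 0.144 for Cr2, and 0.0127 and 0.183 for Fcer2a. Tested probe by probe, 45 of 48 marrow probes were below 0 at 24 h and 3 were called. The authors' table was not run for comparisons between tissues. Signal over background limits liver, where 7 members could not be tested.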
